A study of Homo sapiens with 4 samples.

Results

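Fatty acid synthesis and desaturation was examined through 10 enzymes: ACLY, ACSS2, ACACA, ACACB, FASN, ME1, ELOVL6, SCD, FADS1 and FADS2. They were chosen by name, with their values in these same libraries already known, and they are 10 of the 11896 protein-coding genes that were tested. Of the 10, 9 had lower levels in both libraries labelled PRMT5 KD than in both control libraries, by 2.45-fold for ACLY up to 36.4-fold for SCD, and ACACB was low in all 4. Together the 10 enzymes took 1.45% and 1.75% of the protein-coding counts in control, but 0.177% and 0.193% in the libraries labelled PRMT5 KD. Because the choice rested on this comparison, the values of the 10 enzymes, and the count of them past the call rule used for all genes, are given as a description from which nothing is read. Adjusted p-values (FDR) are given only for other genes: PRMT5, those of the surrounding pathways and chromosomal neighbours.

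A cell makes fatty acids from acetyl-CoA in the cytosol. ACLY and ACSS2 supply the acetyl-CoA, acetyl-CoA carboxylase turns it into malonyl-CoA, and fatty acid synthase condenses these units into palmitate with NADPH as the reductant. Elongases and desaturases then lengthen the chain and place unsaturated bonds in it. The genes of this route are well known targets of SREBP transcription factors, which are held in the membrane of the endoplasmic reticulum and released by cleavage when sterols are scarce, and tumour cells often make more fatty acids than the tissue they came from.

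The libraries are labelled as UMSCC74B, the name of an established line, and as head and neck squamous cell carcinoma (HNSCC). The control group comprised 2 libraries (genotype WT, control shRNA) and the other 2 were labelled PRMT5 KD (PRMT5 shRNA), with RNA taken 72 h after the shRNA was delivered. Both groups carried an shRNA and are labelled as the same line, grown in medium with serum and antibiotic and, after delivery, without antibiotic; the labels speak of transfected plasmids, and the study's methods of lentiviral particles. No label says whether replicates were separate cultures, so the p-values measure only the spread between these libraries, which may be technical.

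PRMT5, the arginine methyltransferase that the shRNA was aimed at, had 94.3 and 84.2 CPM (counts scaled to a common library size) in control and 132 and 150 CPM under the PRMT5 KD label. The transcript was higher in the libraries labelled PRMT5 KD (log2 fold change 0.66, standard error 0.12, edgeR FDR = 0.00543), and without control replicate 2 it no longer passed the test (0.58, FDR = 0.0674). The protein was not measured by these counts, whereas the study reports an immunoblot that showed the silencing by its PRMT5 shRNA. Every direction given here is by the labels. The totals were 52185289 to 65964558 counts per library, and ribosomal RNA took 15.3% and 14.2% of them in control against 26.2% and 18.02% under the PRMT5 KD label. Of 7 squamous epithelial markers, only TP63 passed the filter on low expression: KRT5 had 0, 0, 0 and 4 counts, KRT14 0, 0, 11 and 22, and CDH1, which encodes E-cadherin, 9, 4, 2 and 4, control libraries given before the libraries labelled PRMT5 KD. The 7 squamous markers summed to 6.80 and 7.39 CPM in control against 3.97 and 6.13 CPM. Most of the control sum was TP63 (5.51 and 6.59 against 1.74 and 3.01 CPM), which passed the filter through the control libraries alone. KRT17 went the other way, as KRT14 did, with 5 and 6 against 53 and 71 counts. EPCAM had 37 and 29 against 40 and 48 counts, and KRT6A 0 and 1 against 0 and 0. All 6 fibroblast markers passed, and their summed level was 629 and 727 CPM in control and 87.6 and 97.2 CPM under the PRMT5 KD label. The markers thus go against the squamous label, and the identity of the line was not tested. The summed levels of the endothelial markers (1 of 3 tested) were 10.1 and 14.03 against 1.01 and 0.460 CPM, and those of the immune markers (1 of 5 tested, CD68, with CD3E at 0) 95.8 and 114 against 154 and 170 CPM. None of the 6 adipocyte markers passed, with sums of 1.04 and 1.04 against 0.252 and 0.167 CPM. The rRNA share and the sums of these markers moved with the groups, as the enzymes did, and their part in the results was not tested. In bulk RNA, fewer cells of a type and less RNA per cell cannot be told apart.

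The enzymes lie on 7 chromosomes of GRCh38, with ACLY, ACACA and FASN on chromosome 17 and FADS1 and FADS2 side by side on chromosome 11. Of the 10, 9 have an entry in the RefSeq promoter table (GRCh38.p14), with 15 start windows of 250 bases before the annotated start. FASN has no entry there, so its promoter was not searched. The upstream windows of SCD, ACLY and ME1 are shown, since SCD had the largest fold change of the 10, ACLY the smallest of the 9, and ME1 is the enzyme that supplies NADPH. They are written 5′ to 3′ on the gene's own strand, and capitals mark CCAAT or its reverse complement, the box bound by NF-Y. SCD starts on the plus strand, with its window at chr10:100346983-100347232, ACLY on the minus strand (chr17:41919023-41919272) and ME1 on the minus strand (chr6:83431052-83431301).
SCD: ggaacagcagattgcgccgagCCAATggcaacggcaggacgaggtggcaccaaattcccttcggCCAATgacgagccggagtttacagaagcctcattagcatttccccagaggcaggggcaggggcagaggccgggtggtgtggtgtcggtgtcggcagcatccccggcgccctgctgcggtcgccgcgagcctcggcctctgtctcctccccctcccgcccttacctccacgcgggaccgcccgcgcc
ACLY: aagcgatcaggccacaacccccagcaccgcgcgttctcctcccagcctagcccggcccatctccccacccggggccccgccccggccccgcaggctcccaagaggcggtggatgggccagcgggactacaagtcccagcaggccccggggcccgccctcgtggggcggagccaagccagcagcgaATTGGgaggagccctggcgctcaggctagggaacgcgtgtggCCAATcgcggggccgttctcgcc
ME1: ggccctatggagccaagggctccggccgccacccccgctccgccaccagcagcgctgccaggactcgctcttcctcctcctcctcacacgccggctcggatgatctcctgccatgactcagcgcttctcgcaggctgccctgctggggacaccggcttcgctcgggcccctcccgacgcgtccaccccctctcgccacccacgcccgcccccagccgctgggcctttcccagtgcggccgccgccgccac
The SCD window held CCAAT 229 and 186 bases before the start, and the ACLY window held the box 65 and 23 bases before it, once on each strand. The ME1 window had none. On both strands, CCAAT stood in 7 of the 15 windows, from 5 of the 9 enzymes, against 32.0% of all 35116 RefSeq promoter windows and 33.5% of the 14294 windows of genes tested. The GC box GGGCGG, the site of SP1, stood in 12 windows, from all 9 enzymes, against 42.6% and 63.3%. The SREBP site TCACNCCAC stood in 0 of the 15 windows and in 0.883% of all windows, and the E-box CACGTG in 0 of 15 and in 6.34%. No motif holds another, and windows of 1 gene can share bases. A match here is only a match of letters.

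Acetyl-CoA supply is the entry of the route. ACLY, which cleaves cytosolic citrate (chromosome 17, 41866917 to 41930542, minus strand), had 942 and 1110 CPM in control and 425 and 413 CPM under the PRMT5 KD label. The means were 1026 ± 119 and 419 ± 7.87 CPM (SD, n = 2 each), and the log2 fold change was -1.29 (standard error 0.15). ACSS2, which makes acetyl-CoA from acetate (chromosome 20, 34872146 to 34927962, plus strand), had 198 and 249 CPM in control and 24.0 and 22.4 CPM under the PRMT5 KD label. Here the means were 223 ± 36.04 and 23.2 ± 1.17 CPM (SD, n = 2 each), and the log2 fold change was -3.27 (standard error 0.15). The groups did not overlap for either enzyme, and the fold difference of ACSS2 was 9.63, against 2.45 for ACLY.

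Carboxylation, the committed step, can be run by ACACA in the cytosol, or by ACACB at the mitochondrial surface, where malonyl-CoA restrains the import of fatty acids for oxidation. ACACA (chromosome 17, 37084992 to 37406836, minus strand) had 365 and 404 CPM in control against 100 and 114 CPM, and the log2 fold change was -1.84 (standard error 0.13). ACACB (chromosome 12, 109116587 to 109268226, plus strand) had 8.74 and 10.2 CPM in control against 6.58 and 8.91 CPM. Its groups overlapped, its log2 fold change was -0.29 (standard error 0.21), and it was the member of the 10 that did not pass the call rule. It rested on 313 to 512 counts per library, and it passed the filter on low expression through the control libraries. Per length of exon, ACACA stood 46.5 and 43.98 times above ACACB in control and 17.0 and 14.2 times above it under the PRMT5 KD label, so the cytosolic form was the more abundant in all 4 libraries.

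FASN, which builds the chain, and ME1, the cytosolic malic enzyme that supplies NADPH to it, were both lower in the libraries labelled PRMT5 KD. FASN (chromosome 17, 82078338 to 82098294, minus strand) had 2658 and 3004 CPM in control and 443 and 493 CPM under the PRMT5 KD label, a fold difference of 6.05 (log2 fold change -2.60, standard error 0.16). ME1 (chromosome 6, 83210402 to 83431051, minus strand) had 878 and 800 CPM in control and 133 and 118 CPM under the PRMT5 KD label. Its fold difference was 6.68 (log2 fold change -2.74, standard error 0.15), and it was the enzyme whose control replicate 1 stood above control replicate 2. ME2, a mitochondrial relative, had 33.6 and 35.0 CPM in control and 47.1 and 46.3 CPM, so that the ratio of ME1 to ME2 per length of exon went from 124 and 109 to 13.5 and 12.2. With canonical transcript lengths the ratio was 70.6 and 61.8 in control against 7.64 and 6.91.

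Desaturation held the largest difference of the 10. SCD, which puts the unsaturated bond into stearate to give oleate (chromosome 10, 100347233 to 100364826, plus strand), had 8633 and 11057 CPM in control and 257 and 284 CPM under the PRMT5 KD label. These levels rest on 341752 and 553323 counts in control and on 12252 and 13589 counts under the PRMT5 KD label. The means were 9845 ± 1714 and 271 ± 18.9 CPM (SD, n = 2 each), and the log2 fold change was -5.18 (standard error 0.22). By RPKM, which divides CPM by the length of exon in kilobases, SCD was number 3 of all protein-coding genes in both control libraries but number 665 and 548 under the PRMT5 KD label. Counted from the lowest, its log2 fold change was number 17 of the 11896 genes tested. SCD5, the other human stearoyl-CoA desaturase, had 11.7 and 17.2 CPM in control and 12.4 and 14.4 CPM, did not pass the test (log2 fold change -0.11, FDR = 0.697) and overlapped between the groups. Per length of exon, SCD exceeded SCD5 by 597 and 518 times in control and by 16.7 and 15.9 times under the PRMT5 KD label.

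FADS1 and FADS2 desaturate polyunsaturated chains, and ELOVL6 lengthens palmitate to stearate, the substrate of SCD. FADS1 (chromosome 11, 61799627 to 61829318, minus strand) had 1194 and 1576 CPM in control and 233 and 225 CPM under the PRMT5 KD label, and the log2 fold change was -2.60 (standard error 0.18). FADS2 (chromosome 11, 61792980 to 61867354, plus strand) had 351 and 437 CPM in control and 49.3 and 52.4 CPM, and the log2 fold change was -2.95 (standard error 0.15). Both were lower in both libraries labelled PRMT5 KD, by 6.05-fold and 7.74-fold. Their annotated spans overlap on opposite strands: in the GENCODE spans given here, which set the exon lengths, FADS1 lies wholly within FADS2, and FEN1 overlaps FADS2 too, whereas in RefSeq FADS1 and FADS2 share 801 bases. The kit keeps strand, but the sources used here do not state whether the counting used it, so reads in shared bases could be split either way. ELOVL6 (chromosome 4, 110045846 to 110199199, minus strand) had 125 and 158 CPM in control and 40.2 and 43.0 CPM, and the log2 fold change was -1.77 (standard error 0.15) and a fold difference of 3.40.

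**Figure D1:**
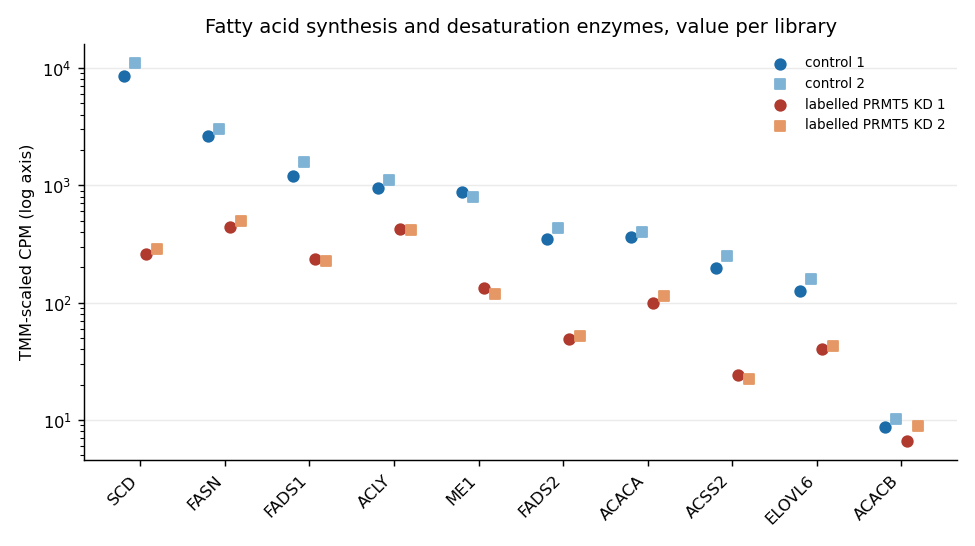
Level of each of the 10 enzymes in each library, as TMM-scaled CPM on a log axis, with 1 point per library and enzymes in order of their control level. SCD stands at 8633 and 11057 CPM in control and at 257 and 284 CPM under the PRMT5 KD label, and only for ACACB, at 6.58 to 10.2 CPM, do the groups overlap.

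Counted over the 10 enzymes, 9 passed the call rule (edgeR FDR under 0.05 with a log2 fold change at or beyond 0.5 in either direction), all with lower levels, beside a background of 24.4% of genes tested called lower. Calls in either direction were 45.6% of the 11896 genes (5421), and 21.2% were called higher (2523). Of the enzymes, 9 had both libraries labelled PRMT5 KD below both control libraries, against 40.6% of genes tested. A log2 fold change of -1 or lower was seen in 9, against 13.1% of genes tested, and 6 were at -2 or lower. Nothing is read from these counts, since the enzymes were chosen with this comparison in view. Their median log2 fold change was -2.60, beside -0.01 over all genes tested, whose 5th and 95th percentiles were -1.66 and 1.41. Leaving out control replicate 2 took the calls over all genes from 5421 to 3134.

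**Figure D2:**
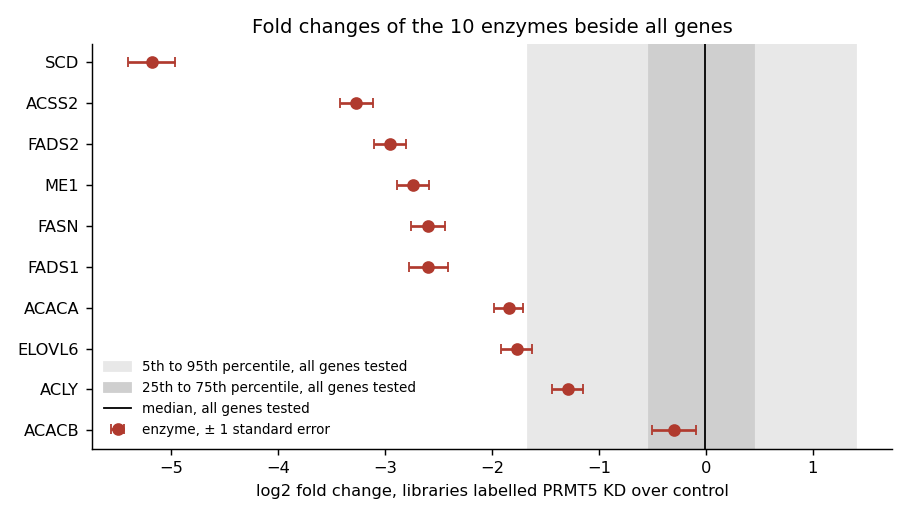
Fitted log2 fold change of each enzyme, libraries labelled PRMT5 KD over control, with bars of 1 standard error, over shaded bands for all 11896 genes tested. SCD lies at -5.18, 8 of the 10 lie below the 5th percentile of -1.66, and ACACB lies at -0.29, inside the middle band.

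For every enzyme but ACACB, the libraries of a group differed less than the groups did. Control replicate 2 exceeded control replicate 1 for 9 of the 10 enzymes, by 0.15 (ACACA) to 0.40 (FADS1) on the log2 scale of CPM, and ME1 differed by -0.13. Between the libraries labelled PRMT5 KD, the differences, replicate 2 against replicate 1, ran from -0.17 (ME1) to 0.44 (ACACB). Scaled levels summed over the 10 enzymes were 17078 ± 2441 CPM in control and 1743 ± 43.3 CPM under the PRMT5 KD label (SD, n = 2 each), a ratio of 9.80. Without SCD the sums were 7233 ± 727 and 1472 ± 24.4 CPM, a ratio of 4.91. SCD supplied 56.2% and 58.8% of the counts of the 10 enzymes in control against 15.0% and 16.0% under the PRMT5 KD label.

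**Figure D3:**
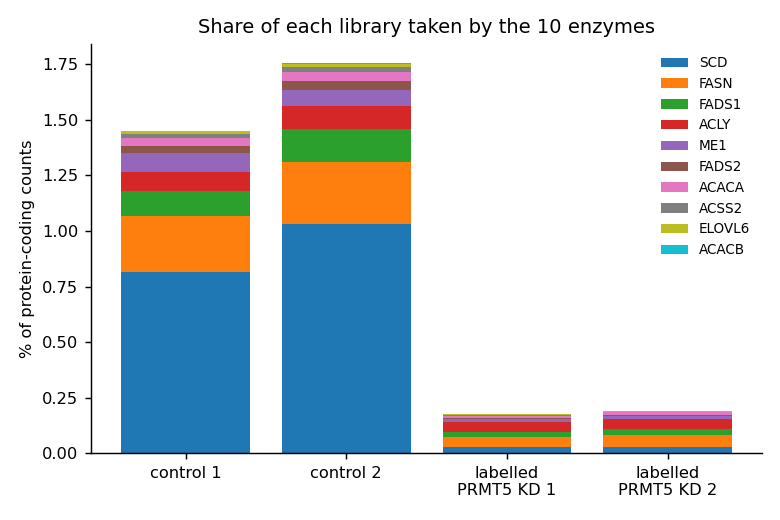
Share of the protein-coding counts of each library taken by the 10 enzymes, as stacked bars from 0, with 1 colour per enzyme. The bars reach 1.45% and 1.75% in control, where SCD is the largest block, and 0.177% and 0.193% in the libraries labelled PRMT5 KD.

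Levels can be compared between enzymes only per length. In control, mean RPKM over the union of exons ran in the order SCD (1877 ± 327), FASN (304 ± 26.3), ME1 (251 ± 16.5), ACLY (197 ± 22.8), FADS1 (135 ± 26.4), ACSS2 (42.5 ± 6.87), FADS2 (37.3 ± 5.76), ACACA (29.5 ± 2.10), ELOVL6 (19.5 ± 3.22) and ACACB (0.654 ± 0.0726), each as SD over 2 libraries. Of the neighbours in that order, only ACSS2 and FADS2 had ranges that overlapped. Under the PRMT5 KD label ACLY came to the top (80.4 ± 1.51 RPKM), followed by SCD (51.6 ± 3.60) and FASN (50.2 ± 3.73), whose ranges overlapped. ACSS2 was then next to last (4.42 ± 0.224 RPKM), above ACACB (0.533 ± 0.114). With canonical transcript lengths in place of exon unions, a setting chosen after the data were seen, FADS1 moved to 317 ± 61.8 RPKM in control and overlapped FASN, and FASN, FADS1 and SCD overlapped under the PRMT5 KD label. SCD was the highest in control and ACLY under the PRMT5 KD label with either length.

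Ratios between successive enzymes showed how unequal the differences were. SCD stood above FASN per length of exon by 5.77 and 6.54 times in control and by 1.03 and 1.03 times under the PRMT5 KD label. With canonical transcript lengths that ratio was 5.24 and 5.94 in control against 0.937 and 0.931, so the order under the PRMT5 KD label depended on the length used. FASN stood above ACACA by 10.2 and 10.4 times in control and by 6.18 and 6.05 times. The ratio of FADS1 to FADS2 was 3.51 and 3.72 in control against 4.89 and 4.42 under the PRMT5 KD label. FADS2 was above FADS3, another gene of that cluster, by 2.78 and 3.37 times in control and below it, at ratios of 0.734 and 0.943, under the PRMT5 KD label. ACSS2 exceeded its mitochondrial relative ACSS1, which was below the filter in these cells with 67 to 160 counts, by 194 and 219 times in control and by 19.7 and 11.1 times.

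**Figure D4:**
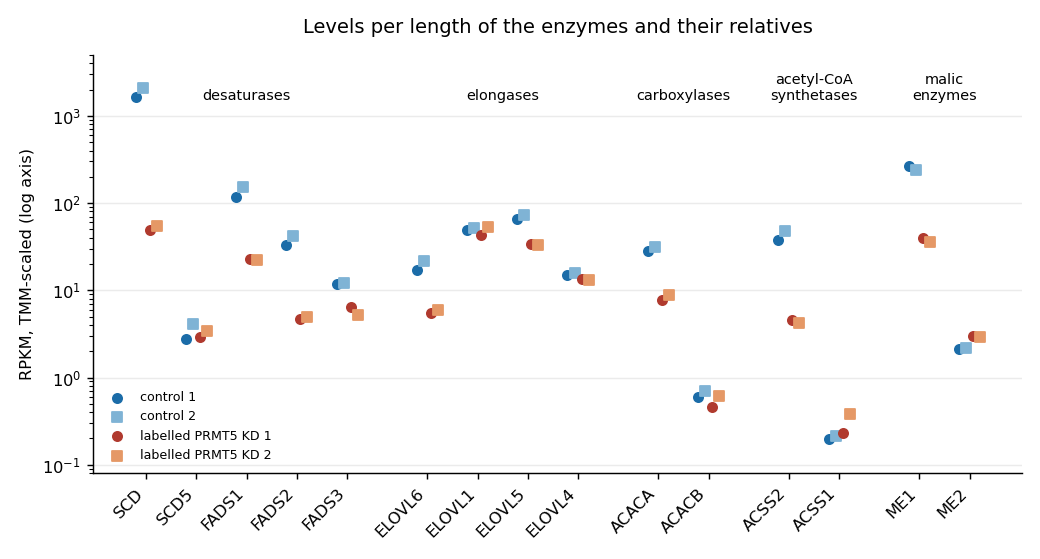
RPKM (TMM-scaled, log axis) of enzymes and their relatives in each library, grouped as desaturases, elongases, carboxylases, acetyl-CoA synthetases and malic enzymes. The distance between SCD and SCD5 shrinks from 597 and 518 times in control to 16.7 and 15.9 times under the PRMT5 KD label, while ELOVL1 and ELOVL4, which were not called, each keep a similar level over the 4 libraries.

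The pathways around the 10 enzymes were followed in 7 lists of 139 genes, none of them a member, of which 113 could be tested. Of these, 46 were called, 40 lower and 6 higher, which is 35.4% lower and 5.31% higher against 24.4% and 21.2% over all genes tested. With total counts alone as the scaling, which moved the median of all genes to 0.17, the calls were 34 lower and 18 higher. The lists were written with earlier results of these data known. The plot of fold changes by list shows them gene by gene.

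Regulators of the route were lower more often than higher: 11 of 21 tested were called lower and 1 higher. The median log2 fold change was -0.54, and the shares were 52.4% lower and 4.76% higher, beside 24.4% and 21.2% of all genes tested. The list mixes genes that drive the route with genes that restrain it, such as INSIG1 and INSIG2. The count of calls thus gives no direction for the route. SREBF1, which encodes the SREBP that drives lipogenic genes, had 434 and 490 CPM in control and 91.2 and 126 CPM under the PRMT5 KD label (log2 fold change -2.09, standard error 0.19, FDR = 0.000499). SREBF2, whose product acts mainly on sterol genes, had 466 and 506 against 224 and 189 CPM (-1.23, standard error 0.14, FDR = 0.000941). NR1H3, the liver X receptor alpha, was at 20.4 and 27.6 against 4.06 and 5.69 CPM (-2.30, standard error 0.24, FDR = 0.000732). These 3 transcription factors fell beyond the spread between libraries, and SREBF1 went from 0.909 and 0.948 of SREBF2 per length of exon to 0.399 and 0.652. With canonical transcript lengths SREBF1 went from 0.994 and 1.04 of SREBF2 to 0.436 and 0.713. SCAP, the escort of SREBP, fell by 0.72 on the log2 scale (FDR = 0.00237) but was at -0.47 after a correction for length and GC content, under the fold threshold. INSIG2, which retains SCAP, was lower by -0.94 (FDR = 0.00195). INSIG1 was at 510 and 667 against 303 and 147 CPM (-1.39, FDR = 0.0293), and this call was lost without control replicate 1 (FDR = 0.0571), without control replicate 2 (0.117) and with no filter on low counts (0.0769). MID1IP1, a partner of acetyl-CoA carboxylase, fell by 0.65 on the log2 scale (FDR = 0.00397) and was at -0.47 with total counts alone. USF1 was the gene called higher (0.61, FDR = 0.00625), a call lost without control replicate 1 (0.0501) or 2 (0.0710). MLXIPL and THRSP were below the filter, with at most 29 and 3 counts in any library.

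Of the genes that supply citrate, acetyl-CoA and NADPH, 6 of 17 tested were called lower and 1 higher, with a median of -0.24. The shares were 35.3% lower and 5.88% higher, beside 24.4% and 21.2% of all genes tested. The split depended on the setting: total counts alone gave 3 lower and 4 higher. The length and GC correction gave 5 lower and 3 higher. IDH1, the cytosolic NADP-dependent isocitrate dehydrogenase, had 196 and 220 CPM in control and 68.2 and 77.1 CPM (log2 fold change -1.52, standard error 0.13, FDR = 0.000416). SLC25A1, the mitochondrial citrate carrier, was at -1.07 (FDR = 0.00222). Both genes, on the citrate and NADPH side of the route that ACLY and ME1 also serve, were separated by more than the spread between libraries. TALDO1 of the pentose phosphate pathway was called higher (0.55, FDR = 0.00811), and the call was lost without control replicate 1 (0.0816) or 2 (0.0557). Without control replicate 1 the list had 4 calls and without control replicate 2 it had 3, in place of 7, all of them lower.

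Among the other elongation and desaturation genes, 5 of 14 tested were called lower and 0 higher. That is 35.7% lower, beside 24.4% lower and 21.2% higher over all genes tested. FADS3 had 75.2 and 77.2 CPM in control and 40.0 and 33.2 CPM (log2 fold change -1.06, FDR = 0.00119). ELOVL5, which lengthens polyunsaturated chains, had 250 and 278 CPM against 128 and 126 CPM (-1.06, FDR = 0.000826). HSD17B12, the ketoacyl reductase of the elongation cycle, was at -1.003 (FDR = 0.00102). ELOVL1 did not pass (-0.09, FDR = 0.621), nor did ELOVL4 (-0.20, FDR = 0.174). The median of the list was -0.31.

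For uptake, binding and activation of fatty acids, 6 of 10 tested genes were called lower and 2 higher, with a median of -0.84. The shares were 60% lower and 20% higher, beside 24.4% and 21.2% of all genes tested. ACSL3, an acyl-CoA synthetase of the endoplasmic reticulum and lipid droplets, had 400 and 440 CPM against 133 and 165 CPM (log2 fold change -1.499, FDR = 0.000645). SLC27A1, a fatty acid transport protein, was at -1.37 (FDR = 0.00125) and DBI, an acyl-CoA binding protein, at -1.01 (FDR = 0.00358). FABP5, a fatty acid binding protein, rose from 6.37 and 6.03 to 18.3 and 24.0 CPM (1.77, FDR = 0.000665). ACSL5 was called higher at 0.51 (FDR = 0.0193), close to the fold threshold, and lost the call without either control library (FDR = 0.132 and 0.0799), without PRMT5 KD replicate 1 (0.40) and after the length and GC correction (0.44). FABP3, named after its values were seen, had 46 and 107 counts in control and 0 in both libraries labelled PRMT5 KD. It passed the filter on low expression through the control libraries alone, and it is among the 6 genes called lower. It was at least 26.2-fold lower against a floor of 3 counts per library, and with it at that bound the median of the list was -0.84 too.

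For storage of fatty acids in glycerolipids and droplets, 7 of 19 tested genes were called lower and 0 higher, with a median of -0.34. That is 36.8% lower, beside 24.4% lower and 21.2% higher over all genes tested. PNPLA3, a lipid droplet acylhydrolase, had 18.1 and 19.9 CPM in control and 3.93 and 2.89 CPM (log2 fold change -2.48, FDR = 0.000379). LPIN1, a phosphatidate phosphatase, had 323 and 346 against 78.9 and 79.4 CPM (-2.08, FDR = 0.000203). GPAM, the mitochondrial glycerol-3-phosphate acyltransferase, had 81.2 and 98.4 against 24.96 and 18.2 CPM (-2.06, FDR = 0.000549). All 3 were separated by more than the spread between libraries.

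In fatty acid oxidation, 4 of 22 tested genes were called lower and 1 higher, with a median of -0.18. The lower genes included the peroxisomal enzyme HSD17B4 (log2 fold change -1.49, FDR = 0.000319) and the receptor PPARA (-1.01, FDR = 0.00401). CPT2 of the mitochondrial carnitine shuttle was called higher (0.59, FDR = 0.0191), a call lost without control replicate 1 (0.13), control replicate 2 (0.0863) or PRMT5 KD replicate 2 (log2 fold change 0.47). In mitochondrial fatty acid synthesis, the separate route that makes the precursor of lipoic acid, 1 of 10 tested genes was called lower and 1 higher, with a median of 0.29. These were CBR4 (-0.79, FDR = 0.00486) and AASDHPPT (0.63, FDR = 0.00521), and both calls were lost without control replicate 2, at FDR values of 0.0599 and 0.0600. At those sizes, 18.2% of the oxidation genes and 10.0% of the mitochondrial synthesis genes tested were called lower, beside 24.4% of all genes tested. The shares called higher were 4.55% and 10.0%, beside 21.2%. Both lists thus held smaller shares of calls than the background in each direction, and the difference between lists was not tested.

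**Figure D5:**
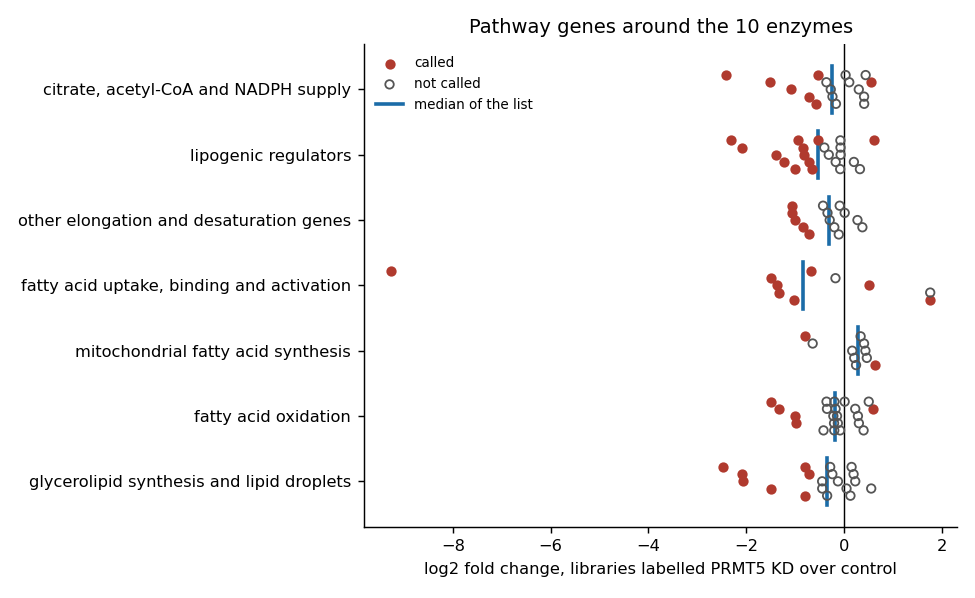
Fitted log2 fold change of each tested gene of the 7 pathway lists, libraries labelled PRMT5 KD over control, with called genes filled, others open and a bar at the median of the list. The median is lowest for uptake, binding and activation (-0.84) and above 0 only for mitochondrial fatty acid synthesis (0.29); the point at the far left is FABP3, whose fitted value depends on the prior count.

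Gene length moved with the fold changes in these libraries, and its part in the results was not tested. ACACB (14513 bases of exon), ACACA (13022), FADS2 (10553), FADS1 (10228) and FASN (9321) are long, against a median of 5380 bases over genes tested, and the 1000 genes nearest to each in length had median log2 fold changes of -0.27, -0.27, -0.24, -0.20 and -0.16. For SCD, ACLY, ACSS2 and ME1 that median lay between -0.01 and 0.12, and for ELOVL6 it was -0.09. After the length and GC correction, ACACA was at -1.48, FASN at -2.10 and FADS2 at -2.53, and ACACB changed sign to 0.17.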

How the data were processed

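RNA-seq was analysed for 2 control and 2 PRMT5 KD-labelled libraries of UMSCC74B, grouped by the labels. The authors deposited estimated counts per gene symbol, with decimals and without normalization. Their methods name STAR on hg38, uniquely mapped reads and FeatureCounts, whereas the submitters' processing notes name FastQC, Trim Galore, STAR, Salmon and DESeq2 with no role, on GRCh38. Which program made the estimates is not given in the sources used here.

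Each table held 29744 rows, of which 28 with names turned into dates were left out. Of 29655 names, most were found in GENCODE release 44 (GRCh38) by symbol (21877), RefSeq gene number (1147) or synonym (1526), 107 were ambiguous and 4998 had no match. Of 139 pathway genes, 2 (HTD2 and GPAT3) were not found under any name used here. Rows of a name were summed and counts rounded. Protein-coding genes with an RPKM (union of exons) of at least 0.5 in every library of either group were tested with the quasi-likelihood test of edgeR 4.0.16 in R 4.3.3 (robust, TMM, no replicate term), with Benjamini-Hochberg adjustment over 11896 genes (FDR). The call rule was an FDR under 0.05 with a log2 fold change at or beyond 0.5 in either direction. CPM and RPKM are TMM-scaled over the genes tested, and standard errors come from the fold change and F statistic. With 2 libraries per group, each FDR rests on the fit across all genes. The biological coefficient of variation was 0.142. Counting error alone is small at this depth, and reads are not independent molecules.

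The members and lists were chosen with earlier results of these data known. Named are all 10 enzymes, PRMT5, 9 regulators (SREBF1, SREBF2, SCAP, INSIG1, INSIG2, MLXIPL, NR1H3, THRSP, MID1IP1) and, from each list, up to 3 called genes per direction with the largest fold change among those of average log2 CPM of at least 3 and groups without overlap; 2 genes that this rule takes are not reported here. SCD5, ME2, ACSS1, ELOVL1 and ELOVL4 are named as relatives of the enzymes, outside that rule, after their values were seen. Alternatives were DESeq2 1.42.0, RLE factors, total counts alone, filterByExpr, no filter, all gene names, a replicate term, a length and GC correction (splines with 4 degrees of freedom), a fold threshold of 1 and each library left out. The procedure was also run on simulated counts in which far fewer genes changed than were called here, so that run does not show the error rate in these data. No label pairs the replicate numbers and there are only 2, so they were not taken as pairs.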

Additional observations from a re-analysis of the deposited data

How the results depend on the processing

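As a description, since the enzymes were chosen on this comparison, 9 were past the call rule under each of the 15 alternatives; SCD ranged from -5.35 to -4.99 and ACLY from -1.41 to -1.11. ACACB turned to 0.17 with the length and GC correction and to 0.16 with the replicate block added. The median of the 10, -2.60, was -2.55 with filterByExpr, -2.54 with no filter, -2.42 with total counts alone, -2.21 with the length and GC correction and -2.20 with that and the replicate block, and -2.68 to -2.44 with 1 library left out. Calls over all genes numbered 2561 at a log2 fold change of at least 1, by construction, and 3134 to 5707 with 1 library left out. At that fold threshold the lists had 3 (supply), 5 (regulators), 3 (elongation and desaturation), 0 (mitochondrial synthesis), 3 (oxidation) and 4 (glycerolipids) calls. With 1 library left out, supply had 3 to 8 calls and mitochondrial synthesis 0 to 3. Mitochondrial synthesis had 6 calls with total counts alone, 5 higher and 1 lower. After correcting for length and GC it had 4, 3 higher and 1 lower, both with the replicate block and without. Oxidation went from 1 higher and 4 lower to 3 higher and 4 lower under each of these settings. The cause of these shifts was not tested. Total counts alone made 61.5% of calls higher, against 46.5%.

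With the replicate block, 5184 genes were called (2403 higher, 2781 lower) and 46 pathway genes (6 higher, 40 lower), and no call of a named gene changed. Deviations of libraries with the same number had a correlation of -0.10 across genes; the crossed pairing, added after the data were seen, gave 5487 calls (2545 higher, 2942 lower). With 2 libraries per group no permutation test or test for an outlying library was possible, and groups of this size leave the fit across genes to set the error.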

Other observations

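Genes next to the 10 enzymes on their chromosomes were called in both directions. Of 36 neighbours, up to 2 on each side, 26 were tested, and 10 were called higher and 9 lower, beside 21.2% and 24.4% of all genes tested, and the median log2 fold change was 0.30. The following were named after their values were seen. FEN1, which encodes the flap endonuclease of DNA replication, overlaps the GENCODE span of FADS2 and ends 2388 bases from FADS1 in RefSeq, rose from 30.9 and 28.7 CPM in control to 147 and 156 CPM (log2 fold change 2.35, FDR = 0.00019), beside FADS1 and FADS2, which were lower. FADS3, on the other side of that cluster, was lower (-1.06). UNG, the uracil DNA glycosylase whose annotated span overlaps that of ACACB, rose from 37.2 and 38.8 to 126 and 140 CPM (1.81, FDR = 0.000251). AATF, beside ACACA, was called higher at 0.90 (FDR = 0.00116) while ACACA was at -1.84. CCDC57, 3165 bases from FASN, was called lower at -1.10 (FDR = 0.00207), and DUS1L on the other side higher at 0.54 (FDR = 0.015). Beside ACSS2, GGT7, which overlaps its span, was lower (-1.21, FDR = 0.000842) and GSS higher (0.50, FDR = 0.00881). TTC25, 74 bases from ACLY, was at 2.07 and 1.90 CPM in control and 0.714 and 0.753 CPM (-1.43, FDR = 0.00734). PRSS35, beside ME1, had the lowest fold change of the neighbours, with 231 and 119 CPM in control against 12.8 and 4.14 CPM (-4.36, FDR = 0.00724). Near SCD, SEC31B was lower (-1.53, FDR = 0.00181) and BLOC1S2 higher (0.59, FDR = 0.00642). Overlapping genes share bases, and how the counting divided them is not stated.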
